A study of Mus musculus with 8 samples.

Results

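Small nucleolar RNAs (snoRNAs) that lie in the introns of ribosomal protein genes were followed in mouse embryonic stem (MES) cells and mouse embryonic fibroblasts (MEFs), with attention to 4 of them that were abundant in MES or in TruSeq libraries. They were Snord68 in Rpl13, Gm26202 in Rpl17, AC161199.1 in Rpl3 and Snora21 in Rpl23. They were picked by name with their high shares of the MES libraries (Snord68, Snora21) or of the TruSeq libraries (Gm26202, AC161199.1) in view, and they make up 4 of the 5518 small RNA genes in the tables and 4 of the 59 snoRNAs found inside ribosomal protein genes. Their levels are therefore a description. A p-value is given for one of them only in a comparison that leaves out the libraries whose high share it was picked on. The contrast of MES TEsR with MEF TruSeq was also in view when the 4 were chosen. Each such p-value uses MES or TruSeq libraries from that contrast, so it too is read as a description.

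Of the 8 libraries, 6 were made by target-enrichment of small RNAs (TEsR), in which linkers are ligated to whole small RNAs, caps are removed, and amplified products are pulled out with hybridisation probes before MiSeq sequencing. The other 2 were standard TruSeq small RNA libraries sequenced on a HiSeq. The MES group held 2 TEsR libraries of stem cells grown without feeders in medium with leukemia inhibitory factor. The MEF groups came from fibroblasts with a conditional knockout of TRF2, a telomere-capping protein, and a Rosa26-CreERT2 recombinase. Induced cells received 4-hydroxytamoxifen at 0.6 µM for 48 hours, and all MEFs carried the allele and the recombinase whether induced or not. The MEF TEsR group held 4 libraries, 2 of them labelled induced and the others uninduced. Their columns are named mm 1, mm 2, pm 1 and pm 2, codes left unexplained in the labels, so the effect of induction was not tested and the spread of this group includes it. The 2 MEF TruSeq libraries are induced by their titles, although their count table is named as a control. They are grouped here by title and named by their indexes, ATCACG and CGATGT.

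Total counts were 2676776 to 2785150 in MES, 3221641 to 3768668 in MEF TEsR and 8442960 to 8961221 in TruSeq. Stem cell microRNAs of the miR-290 and miR-302 clusters, with 12 genes in the tables, summed to 1323 to 1383 counts in MES, 0 to 5 in MEF TEsR and 0 in TruSeq. Fibroblast microRNAs, with 14 genes in the tables, summed to 13 to 21 counts in MES, 653 to 4201 in MEF TEsR and 538 to 890 in TruSeq. Of 8 listed markers of muscle, neural, liver and blood cells, 5 were in the tables, and these had 0 counts in every library. Whether the replicate libraries represent separate cultures is not labelled, so the p-values reflect only how much these samples vary, and that variation may be technical.

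Intronic snoRNAs are cut out of the spliced intron of their host gene and trimmed to the ends protected by their core proteins. C/D box snoRNAs guide ribose methylation of ribosomal RNA and carry a C box near the 5′ end and a D box near the 3′ end. H/ACA box snoRNAs guide pseudouridylation and carry an ACA element 3 bases before the 3′ end. Many of both kinds sit in ribosomal protein genes, which are transcribed at high rates in growing cells. Snord68 and Snord43 are C/D box snoRNAs that guide methylation of ribosomal RNA, and Snora21 is an H/ACA box snoRNA that guides pseudouridylation of the large subunit's RNA. AC161199.1 is typed as a microRNA in the annotation, where its name is Snord43.

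The RNA-strand sequences of 3 of the 4 genes are shown to mark letters that match the boxes of their class. Capitals mark every TGATGA, a form of the C box, and every CTGA, the D box, in the C/D genes, and the ACA 3 bases before the end in Snora21. The letters are those of the GENCODE M21 transcripts on mm10.
Snord68: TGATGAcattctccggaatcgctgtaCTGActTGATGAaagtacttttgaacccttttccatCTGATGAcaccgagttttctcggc
AC161199.1: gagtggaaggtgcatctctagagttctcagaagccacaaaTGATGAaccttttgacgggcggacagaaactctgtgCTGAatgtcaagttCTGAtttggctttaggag
Snora21: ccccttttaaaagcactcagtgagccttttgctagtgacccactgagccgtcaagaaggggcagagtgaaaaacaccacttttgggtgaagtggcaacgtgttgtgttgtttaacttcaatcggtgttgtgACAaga

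Snord68 spans 86 bases at chr8:123103038-123103123 on the plus strand. TGATGA stood at bases 1 to 6, 33 to 38 and 64 to 69 of Snord68, and CTGA at bases 27 to 30 and 63 to 66, so that the last pair overlapped. AC161199.1 spans 108 bases at chr15:80082847-80082954 on the minus strand, with TGATGA at bases 41 to 46 and CTGA at bases 77 to 80 and 91 to 94. Snora21 spans 137 bases at chr11:97781639-97781775 on the minus strand, and its ACA was at bases 132 to 134. RefSeq (GRCm38.p6) draws all 3 genes shorter: its Snord68 covers bases 21 to 68 of the sequence above, its Snord43 covers bases 49 to 96 of AC161199.1 and its Snora21 covers bases 10 to 137. The TGATGA of AC161199.1 and the one at bases 1 to 6 of Snord68 thus lie outside the RefSeq extents. Gm26202, 65 bases long on chromosome 18, held 1 TGATGA and 1 CTGA. Both motifs together were found on the RNA strand in 25.2% of the 1507 snoRNA genes in the tables and in 42.4% of the 59 in ribosomal protein genes. ACA in that place was found in 18.3% and 33.9% of them. A match is a description of the letters and not a mapped site.

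All 4 lay wholly in introns of the principal transcript of their host and on its strand. Snord68 sat in intron 3 of 5 of Rpl13, an intron of 196 bases, and ended 59 bases before the next exon. An annotated retained-intron transcript of Rpl13 also covers it, so counts at Snord68 cannot be told apart from counts of that transcript by position. Gm26202 sat in intron 4 of 6 of Rpl17, 79 bases before the next exon. AC161199.1 was in intron 1 of 9 of Rpl3, 264 bases before the next exon, and Snora21 in intron 2 of 4 of Rpl23, 176 bases before it. Across 53 other snoRNAs with counts in introns of ribosomal protein genes this distance had a median of 87 bases and quartiles of 72 and 191. Snord68 and Gm26202 thus lay nearer to the next exon than the median, and AC161199.1 lay beyond the upper quartile.

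**Figure D1:**
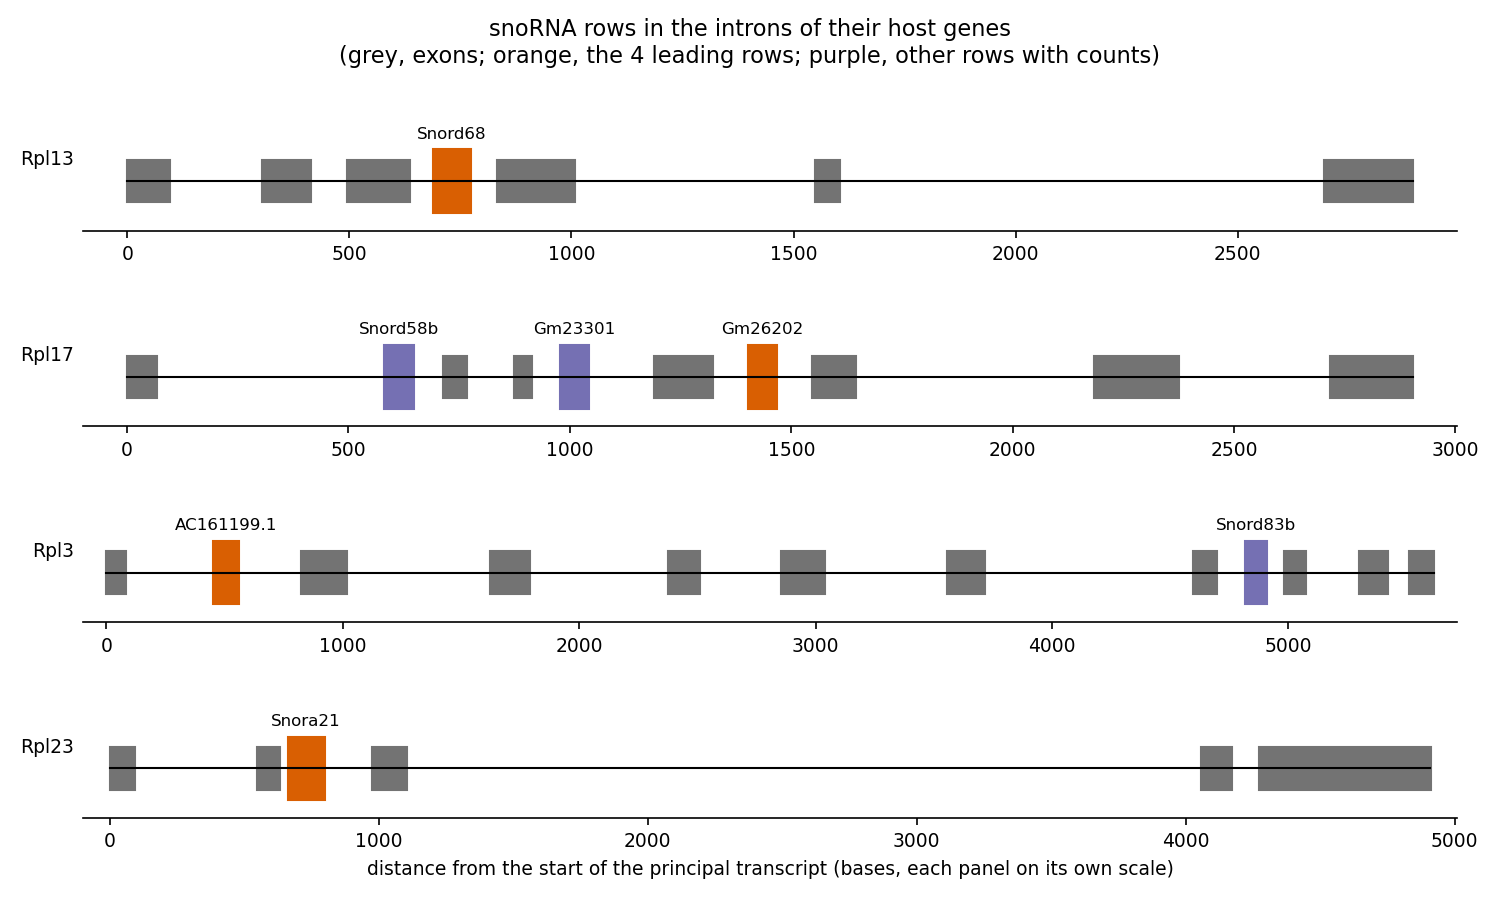
Exons (grey) and snoRNA genes with counts (orange for the 4 leading genes, purple for others) along the principal transcript of each host gene, by distance in bases from its start. Rpl13 and Rpl23 each hold 1 snoRNA with counts, Rpl3 holds 2 and Rpl17 holds 3, each in an intron of its own.

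Snord68 took the most counts of any small RNA gene in 5 of the 6 TEsR libraries and a small share of the TruSeq libraries. It had 1477236 and 1458734 counts in the 2 MES libraries, which were 53.0% and 54.5% of all counts. In MEF TEsR it had 1539398, 1599409, 1380847 and 1153582 counts in mm 1, mm 2, pm 1 and pm 2, or 41.3%, 42.4%, 39.0% and 35.8%. In TruSeq it had 12809 counts with index ATCACG and 17969 with CGATGT, 0.143% and 0.213%. Both MES libraries were above all 4 MEF TEsR libraries, and these were far above both TruSeq libraries. In pm 2 alone it came after Snord70, which took 43.1% there. In TruSeq it ranked 39 and 30 by counts.

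The mean share of Snord68 was 53.8% ± 1.03 (SD, n = 2) in MES, 39.6% ± 2.92 (SD, n = 4) in MEF TEsR and 0.178% ± 0.0494 (SD, n = 2) in TruSeq. MES exceeded MEF TEsR 1.36-fold and MEF TEsR exceeded TruSeq 223-fold in mean CPM, which are counts per 1e6 counts of the library. Because Snord68 alone fills so much of a TEsR library, its level was also set against the counts left after removing all 4 genes. On that scale there were 119 ± 4.69 Snord68 counts per 100 remaining counts in MES (SD, n = 2), 66.2 ± 7.93 in MEF TEsR (SD, n = 4) and 0.244 ± 0.0757 in TruSeq (SD, n = 2). The order of the groups was unchanged, and the ratio of MES to MEF TEsR was 1.80. Snord70 stayed among the remaining counts, with 27.9% and 27.8% of all counts in MES and 37.2% to 43.1% in MEF TEsR. The ratio therefore also depends on Snord70.

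Gm26202 had the opposite order, highest in TruSeq and lowest in MES. It had 2605 and 2125 counts in MES, 0.0935% and 0.0794% of the libraries. In MEF TEsR it had 9392, 8247, 9343 and 6651 counts in mm 1, mm 2, pm 1 and pm 2, or 0.252%, 0.219%, 0.264% and 0.206%. In TruSeq it had 290684 and 329299 counts, 3.24% and 3.90%, and ranked 3 and 4. The 3 groups did not overlap. Mean shares were 0.0865% ± 0.0100 (SD, n = 2) in MES, 0.235% ± 0.0271 (SD, n = 4) in MEF TEsR and 3.57% ± 0.464 (SD, n = 2) in TruSeq, so that TruSeq exceeded MEF TEsR 15.2-fold and MEF TEsR exceeded MES 2.72-fold. Per 100 counts without the 4 genes the last ratio was 2.05.

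AC161199.1, the gene named Snord43 in the annotation, had the widest span between methods. It had 418 and 409 counts in MES, 0.0150% and 0.0153% of the libraries. In MEF TEsR it had 140, 86, 88 and 47 counts in mm 1, mm 2, pm 1 and pm 2, 0.00146% to 0.00375%. In TruSeq it had 1916415 and 2046848 counts, 21.4% and 24.2% of the libraries, and ranked 2 behind Gm23212 in both. The groups did not overlap. The mean TruSeq share of 22.8% ± 2.02 (SD, n = 2) was 9141 times that of MEF TEsR, 0.00250% ± 0.000949 (SD, n = 4), and the MES mean of 0.0151% ± 0.000192 (SD, n = 2) was 6.07 times that of MEF TEsR. Counts of 47 to 140 in the MEF TEsR libraries limit the precision there: the exact 95% interval (Clopper-Pearson) of the lowest share, in pm 2, was 0.00107% to 0.00194%. Such intervals cover counting error only, since the reads carried no molecular identifiers.

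Snora21, the only H/ACA gene of the 4, was high in MES alone. It had 27723 and 22744 counts there, 0.995% and 0.850% of the libraries, and ranked 8 and 9. In MEF TEsR it had 54, 80, 159 and 17 counts in mm 1, mm 2, pm 1 and pm 2, 0.000528% to 0.00450%. In TruSeq it had 674 and 501 counts, 0.00752% and 0.00593%. The MEF TEsR libraries were widely spread, with pm 1 highest and pm 2 lowest, and none reached the lower TruSeq library. The MES mean of 0.923% ± 0.103 (SD, n = 2) was 429 times the MEF TEsR mean of 0.00215% ± 0.00170 (SD, n = 4) and 137 times the TruSeq mean of 0.00673% ± 0.00112 (SD, n = 2). Without pm 1 the MEF TEsR mean was 0.00137%, and MES was 675 times and TruSeq 4.92 times that mean, against 429 and 3.13 with all libraries. In pm 2 the 17 counts gave an exact 95% interval of 0.000307% to 0.000845%.

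**Figure D2:**
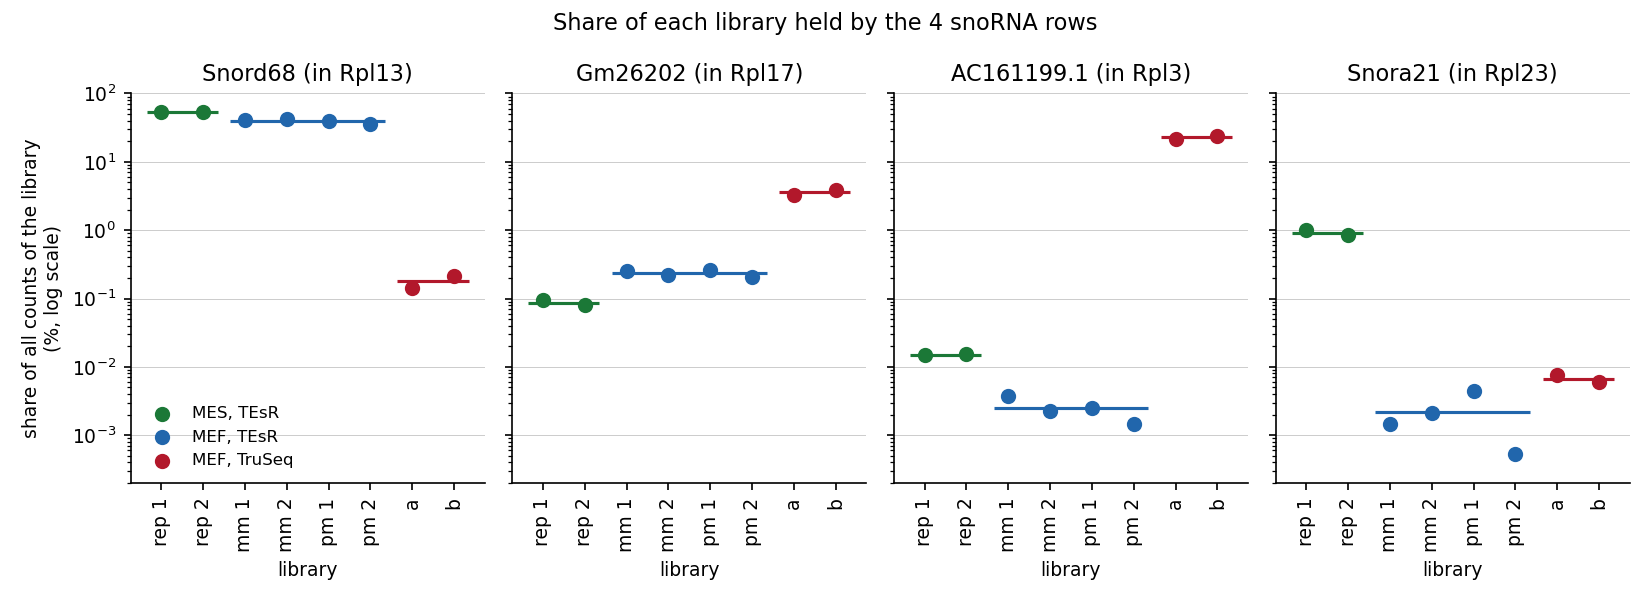
Share of all counts (%, log scale) of the 4 genes in each library; points are libraries and lines are group means (n = 2 MES, 4 MEF TEsR, 2 TruSeq; a and b are the indexes ATCACG and CGATGT). Snord68 lies between 35.8% and 54.5% in the TEsR libraries, AC161199.1 and Gm26202 are highest in TruSeq, and Snora21 is highest in MES.

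Together the 4 genes took 54.8% ± 0.917 (SD, n = 2) of MES counts, 39.9% ± 2.93 (SD, n = 4) of MEF TEsR counts and 26.6% ± 2.53 (SD, n = 2) of TruSeq counts. Snord68 made up 98.1% of the sum in MES and 99.4% in MEF TEsR. In TruSeq AC161199.1 made up 85.9% of it and Gm26202 13.4%. The mm libraries held 41.5% and 42.7% and the pm libraries 39.3% and 36.0%. These were not compared by a test, because the codes are not explained.

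MES and MEF libraries made by the same method were compared over all small RNAs with edgeR's quasi-likelihood test. Of 273 genes tested, 119 (43.6%) were higher and 86 (31.5%) lower in MES, so 75.1% were called (adjusted p under 0.05), and 3 of the 4 leading genes were among them. Nothing is read from that count, because Snord68 and Snora21 were picked on the MES libraries. The test scales libraries by the trimmed mean of M-values. Scaling by library size alone moved the median log2 difference of all tested genes from 0.45 to -0.38, so changes are best read relative to that median.

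AC161199.1 was higher in MES by 3.39 ± 0.39 on the log2 scale (SE; 2 against 4 libraries; Benjamini-Hochberg adjusted p = 2.25e-05, edgeR). The MES libraries were in view when AC161199.1 and Gm26202 were chosen, so the p-values of both are descriptions here. Gm26202 was not called, at -0.66 ± 0.32 (SE; adjusted p = 0.0820, edgeR). Its value ran from -1.44 to -0.59 over 14 alternatives, with adjusted p from 0.00337 to 0.370. It was called lower in MES by library size alone, without pm 1 (-0.74, adjusted p = 0.0418, edgeR) and without both pm libraries (-0.80, adjusted p = 0.0283, edgeR). A fit of all 3 groups gave -0.84, which is left without a test because that fit also uses the TruSeq libraries. For the 2 genes picked on MES, the fitted differences are given without a test. Snord68 was 1.20 ± 0.26 (SE) higher on the log2 scale and Snora21 was 9.63 ± 0.65 (SE) higher. Leaving out MES 1, MES 2 or mm 1 gave 1.04, 1.13 and 0.97 for Snord68, and library size alone gave 0.44.

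The 2 library methods were next compared in MEFs. Of 352 genes tested, 114 (32.4%) were higher and 196 (55.7%) lower in TEsR, so 88.1% were called, and 3 of the 4 leading genes were among them. Nothing is read from that count either, because Gm26202 and AC161199.1 were picked on the TruSeq libraries. The median log2 difference of all tested genes was -2.42, and -3.02 by library size alone, so changes here are also best read relative to that median. The TEsR group mixed induced and uninduced cells, the TruSeq group was induced by its titles but a control by its table's name, and capture and sequencer differed with the method, so these cannot be told apart. Snora21, which was picked on MES, was not called, at -1.16 ± 0.62 on the log2 scale (SE; 4 against 2 libraries; adjusted p = 0.0940, edgeR). It was called lower in TEsR by library size alone (-1.65, adjusted p = 0.0486, edgeR) and without pm 1 (-1.58, adjusted p = 0.0325, edgeR). Over 13 alternatives its value ran from -1.65 to -0.54, the last by DESeq2 (adjusted p = 0.438, Wald test). The TruSeq libraries were in view when Snora21 was chosen, so its p-values here are descriptions. A fit of all 3 groups gave -1.19, which is left without a test because that fit also uses the MES libraries. The other fitted differences, given as descriptions, were 8.48 ± 0.52 (SE) for Snord68, -3.29 ± 0.33 (SE) for Gm26202 and -12.54 ± 0.50 (SE) for AC161199.1, TEsR minus TruSeq. All of these kept their sign in the 13 alternatives.

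Between MES TEsR and MEF TruSeq both the cells and the method differ. Here 86.6% of 352 genes were called, 129 (36.6%) higher and 176 (50.0%) lower in MES, and by library size alone 101 were higher and 219 lower. All 4 leading genes were called, and nothing is read from that count because they were picked on these libraries. The fitted log2 differences were 9.62 for Snord68, 8.45 for Snora21, -4.00 for Gm26202 and -9.19 for AC161199.1. This comparison and the one between methods share the TruSeq libraries, and this comparison and the one between cells share the MES libraries.

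**Figure D3:**
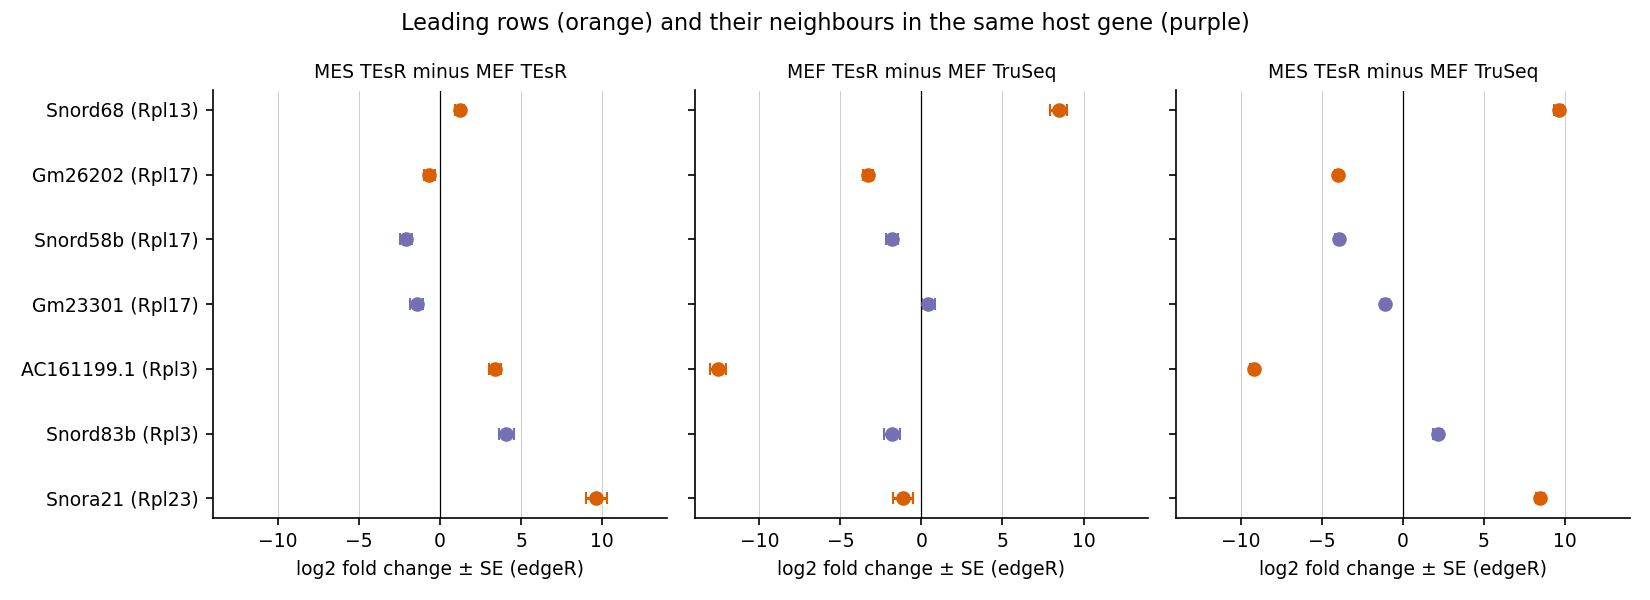
Fitted log2 fold change ± SE (edgeR) of the 4 leading genes (orange) and the neighbours in the same host gene (purple) in the 3 comparisons. Between MES TEsR and MEF TruSeq, Snord83b lies above 0 and AC161199.1, which was picked on TruSeq, far below 0. The 3 genes of Rpl17 lie on the same side of 0 between MES and MEF TEsR.

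Genes that share a host are made from one precursor transcript, so the neighbours of the leading genes were read beside them. Rpl17 holds Gm26202, Snord58b and Gm23301, of 65, 66 and 65 bases. Snord58b had 78 and 63 counts in MES, 614, 640, 802 and 632 in MEF TEsR (mm 1, mm 2, pm 1, pm 2) and 8494 and 9394 in TruSeq. Gm23301 had 191 and 150 counts in MES, 1021, 890, 1522 and 830 in MEF TEsR and 2796 and 3053 in TruSeq. Each library of MES lay below each library of MEF TEsR for both genes.

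Snord58b was lower in MES than in MEF TEsR by -2.10 ± 0.39 on the log2 scale (SE; adjusted p = 6.06e-04, edgeR) and lower in TEsR than in TruSeq MEFs by -1.81 ± 0.38 (SE; adjusted p = 5.29e-04, edgeR). Gm23301 was lower in MES than in MEF TEsR by -1.45 ± 0.38 (SE; adjusted p = 0.00563, edgeR), which was lost when MES 1 or MES 2 was left out (adjusted p = 0.0629 and 0.0971, edgeR). Between methods Gm23301 was not called, at 0.42 ± 0.40 (SE; adjusted p = 0.321, edgeR). Its sign turned with library size alone (-0.17), and DESeq2 called it at 1.04. Gm26202 was at -3.29 there, but it was picked on the TruSeq libraries. Its distance from Gm23301 follows in part from that choice, and the difference between them was not tested. The median of all genes tested between methods was -2.42, so Snord58b and Gm23301 both lay above it.

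Gm26202 held most of the Rpl17 snoRNA counts everywhere. Its share was 90.6% and 90.9% in MES, 85.2%, 84.4%, 80.1% and 82.0% in MEF TEsR (mm 1, mm 2, pm 1, pm 2) and 96.3% and 96.4% in TruSeq. The MES mean of 90.8% ± 0.176 (SD, n = 2) was above the MEF TEsR mean of 82.9% ± 2.31 (SD, n = 4) with no overlap; the two-sided exact permutation p was 0.133, the smallest that 2 against 4 libraries can give. The 3 genes resemble each other: Gm26202 was identical to Gm23301 at 83.1% of aligned bases and to Snord58b at 75.8%, with shared runs of up to 30 and 24 bases. How reads that fit more than one copy were counted is not given in the sources used here, so these shares are uncertain.

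Rpl3 was read in the same way. Its other snoRNA with counts, Snord83b, of 94 bases, had 1298 and 829 counts in MES, 153, 202, 152 and 61 in MEF TEsR (mm 1, mm 2, pm 1, pm 2) and 1453 and 2439 in TruSeq. Snord83b was higher in MES than in MEF TEsR by 4.08 ± 0.46 on the log2 scale (SE; adjusted p = 2.23e-05, edgeR), the direction AC161199.1 also took. It was lower in TEsR than in TruSeq MEFs by -1.84 ± 0.49 (SE; adjusted p = 0.00328, edgeR), beside -12.54 for AC161199.1. The median of all genes tested between methods was -2.42, so Snord83b lay above that median and AC161199.1 far below it. AC161199.1 was picked on its high share of the TruSeq libraries, so its distance from Snord83b follows in part from that choice.

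AC161199.1 (108 bases) held 24.4% and 33.0% of the counts of the pair in MES, 47.8%, 29.9%, 36.7% and 43.5% in MEF TEsR (mm 1, mm 2, pm 1, pm 2) and 99.9% in both TruSeq libraries. The share in MES, 28.7% ± 6.14 (SD, n = 2), and in MEF TEsR, 39.5% ± 7.87 (SD, n = 4), overlapped (two-sided exact permutation p = 0.267, where the smallest that 2 against 4 libraries can give is 0.133, so the test could not pass 0.05). In MEF TEsR the share rested on 108 to 293 counts. By counts, not per length, Snord83b was ahead in all 6 TEsR libraries and AC161199.1 in both TruSeq libraries. Nothing is read from the lead in TruSeq, because AC161199.1 was picked on those libraries. In Rpl13, Mir7079 had 2 to 3 counts in TruSeq and 0 in TEsR. The snoRNA Gm22077 and the snRNA Gm24204 in Rpl3, and the snoRNA Gm27326 in Rpl23, had no count in any library.

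**Figure D4:**
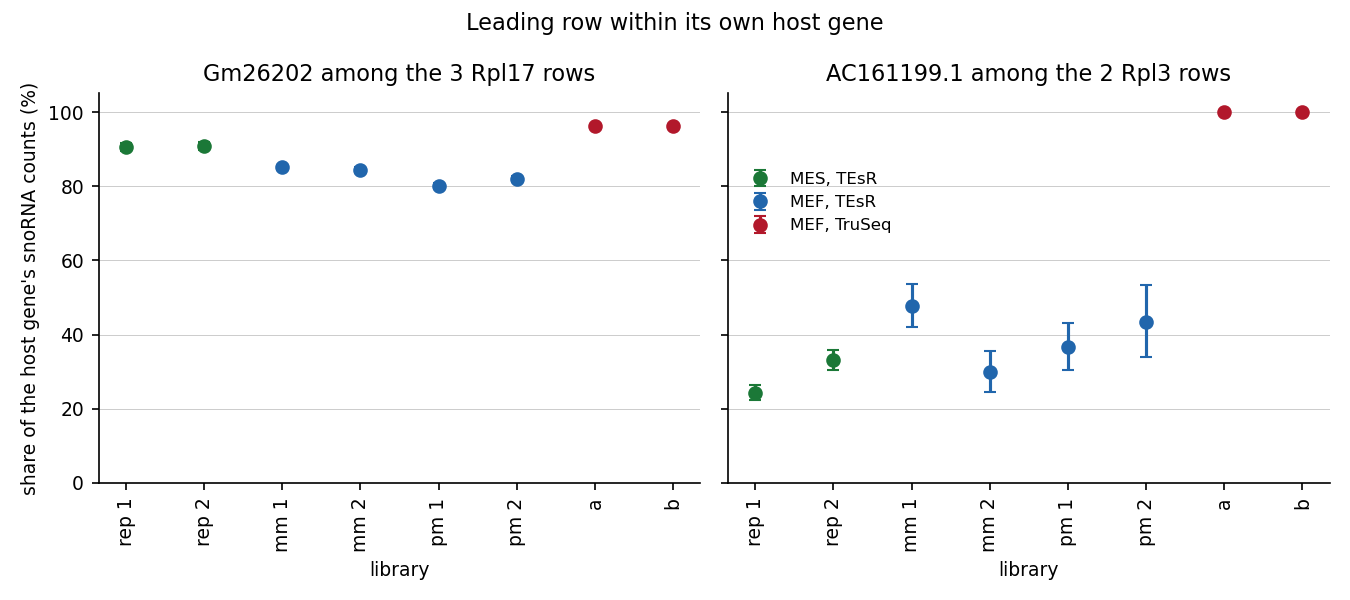
Share (%) of the snoRNA counts of the host gene held by Gm26202 in Rpl17 and by AC161199.1 in Rpl3, per library; points are libraries and bars exact 95% intervals, which cover counting error only (a and b are the indexes ATCACG and CGATGT). Gm26202 stays between 80.1% and 96.4%, while AC161199.1 lies between 24.4% and 47.8% in TEsR libraries and at 99.9% in TruSeq.

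The other snoRNAs of ribosomal protein genes, 55 in number with 53 having a count, were described as a list chosen with earlier results of these data known. Between MES and MEF TEsR, 36 were tested, of which 23 were higher and 7 lower in MES, while 43.6% and 31.5% of all 273 genes were. Their median log2 difference was 2.55 beside 0.45 over all 273 genes. By library size alone 21 were higher and 8 lower. Between TEsR and TruSeq MEFs, 50 were tested, of which 7 were higher and 35 lower in TEsR, while 32.4% and 55.7% of all 352 genes were. Their median was -3.91 beside -2.42 over all 352 genes. With listed genes at 0 in a whole group set to their bound it was -3.65, a step not applied to the median of all genes. Between MES TEsR and MEF TruSeq, 18 of 51 were higher and 28 lower, with a median of -1.05 beside -1.06; by library size alone 11 were higher and 34 lower, and without the library MES 2 there were 16 higher and 17 lower. Of all 352 genes tested between MES TEsR and MEF TruSeq, 36.6% were higher and 50.0% lower. Between the methods Snord68 lay on the side of the 7, and Snora21 was not called. AC161199.1 and Gm26202 lay on the side of the 35, which follows from their being picked on the TruSeq libraries, so nothing is read from it.

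Of the 6 others with the highest mean share in any group, 3 are described here: Snord4a in Rpl23a, Gm23130 in Rps12 and Snord72 in Rpl37. Snord4a had its highest mean in TruSeq, 1.61% ± 0.0930 (SD, n = 2), against 0.676% ± 0.321 (SD, n = 4) in MEF TEsR and 0.0483% ± 0.00328 (SD, n = 2) in MES. Gm23130 had its highest mean in MES, 0.913% ± 0.0536 (SD, n = 2), against 0.357% ± 0.0947 (SD, n = 4) in MEF TEsR and 0.120% ± 0.0285 (SD, n = 2) in TruSeq. Snord72 had its highest in MEF TEsR, 0.725% ± 0.218 (SD, n = 4). The MES mean of Gm23130 was just below the 0.923% of Snora21.

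**Figure D5:**
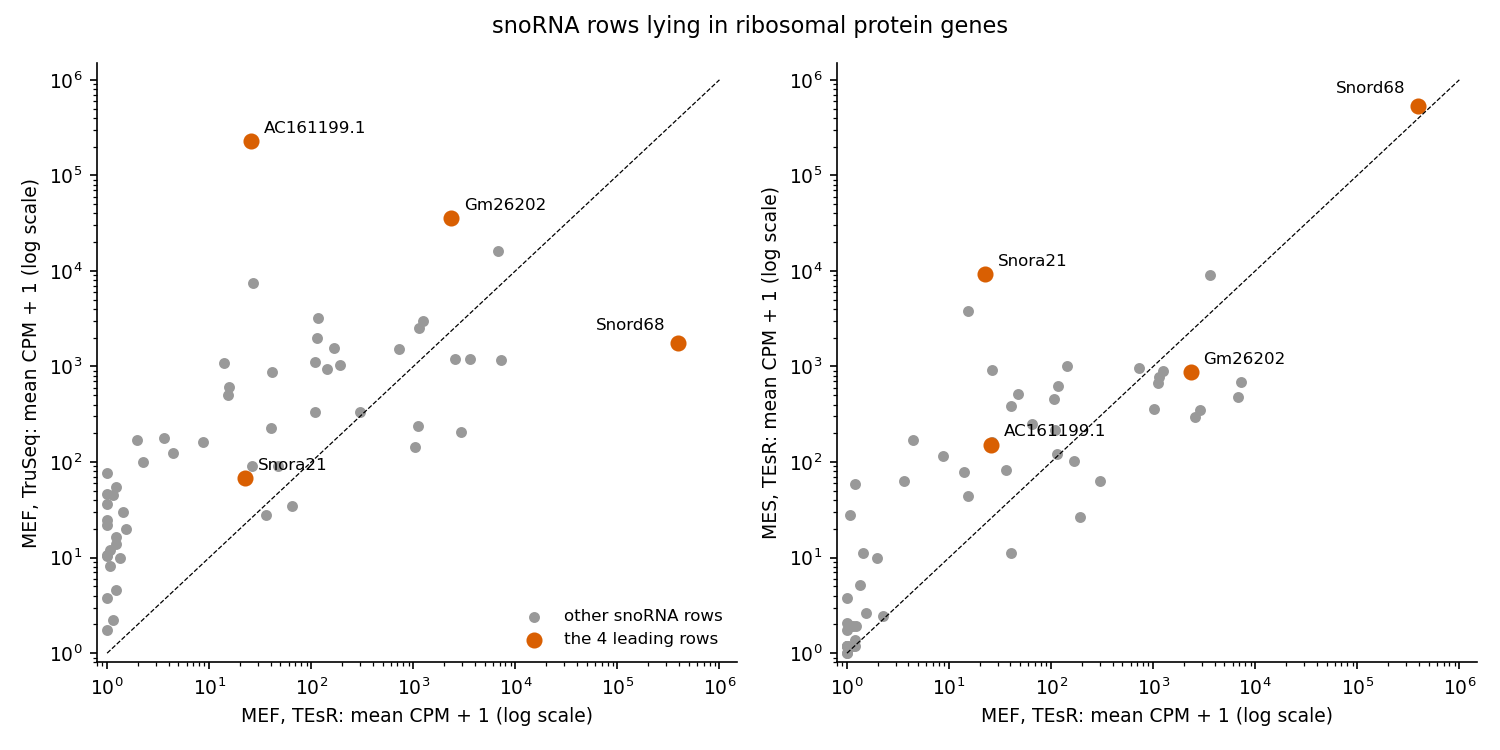
Mean CPM + 1 (log scales) of 57 snoRNAs with counts in ribosomal protein genes, MEF TruSeq (left) and MES TEsR (right) against MEF TEsR; orange points are the 4 leading genes and the dashed line marks equal values. AC161199.1 and Gm26202 lie above the line on the left, Snord68 lies far below it, and Snora21 lies far above the line on the right.

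Genes that carry the name Snora, given to H/ACA snoRNAs, were also read, though H/ACA genes under another name would be missed. Of the genes named Snora, 11 lay in ribosomal protein genes, Snora21 among them. The 10 others had at most 81 counts in a MES library, at most 5 in a MEF TEsR library, with 5 of them at 0 in all 4, and 21 to 735 in a TruSeq library. Snora21 ranked 1 among the 39 named Snora genes in both MES libraries and in mm 1, mm 2 and pm 1, ranked 2 in pm 2, and ranked 3 and 5 in TruSeq. Its rank among the named Snora genes was thus high in both cell types by TEsR, while its share of the library was high in MES only.

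For each gene the 3 most alike genes, by Pearson r of log2(CPM + 1) over the 8 libraries among 305 genes of at least 10 CPM, were taken as a description over points that share library method and cell type. For Snord68 they were Gm26293 (r = 0.999), Snord70 (r = 0.995) and Gm26287 (r = 0.982). Snord70 averaged 278627 CPM in MES, 397975 in MEF TEsR and 211.1 in TruSeq, so it was also high by TEsR and low by TruSeq, but its mean was higher in MEF TEsR than in MES, unlike Snord68. For Gm26202 they were Gm24134 (r = 0.998), itself in Rpl7a, Snord52 (r = 0.992) and Snord98 (r = 0.991). For AC161199.1 they were Snord19 (r = 0.997), Gm22486 (r = 0.997) and Snora68 (r = 0.996). For Snora21 they were Snhg7 (r = 0.968), Snora43 (r = 0.967) and Snord107 (r = 0.961), and the entries Snhg7 and Snora43 overlap in the genome.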

How the data were processed

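Small RNAs were counted in 8 libraries of 3 groups. The authors deposited raw counts per annotated small RNA, in 2 tables that per the file headers list the same 5518 genes, without normalization. Per the submitters' processing notes, BWA 0.7.12, SAMtools 1.2.1, bedtools 2.25.0 and cutadapt were used with mm10; for strand use, reads shared between copies and the column tag q10, details were not given in the sources used here. Columns were assigned by name, and 0 sample columns were unused.

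Genes were matched to GENCODE M21 (5446 of 5518, 5445 at the same coordinates), and 856 had a count. The members and lists were chosen with earlier results of these data known. Shares, CPM and exact Clopper-Pearson 95% intervals were computed from the counts. Fits were made in R 4.3.3 with edgeR 4.0.16 (robust quasi-likelihood, trimmed mean of M-values, filterByExpr with a minimum count of 10, Benjamini-Hochberg adjustment over all genes tested, threshold 0.05), tested on simulated data. Alternatives were DESeq2 1.42.0, library size only, no low-count filter, the members left out, 1 fit of all groups, each library left out, a replicate block and, chosen after seeing the data, the mm or pm libraries left out. Named genes were the members, the other genes with a count in the 4 host genes, the 6 other snoRNAs of ribosomal protein genes with the highest mean share in a group (3 of them are not reported here), and the 3 genes most alike to each member (at least 10 CPM in a group). A count of 3 was the bound for a group at 0. The SE of an edgeR log2 difference was derived as its absolute value divided by the square root of its quasi-likelihood F statistic. Induced and uninduced MEFs were not compared, as columns do not tell them apart.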

Additional observations from a re-analysis of the deposited data

How the results depend on the processing

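Over all alternatives, 466 log2 differences of named and listed genes kept direction and side of the threshold, 17 lost and 10 gained a call, and 2 changed sign, both by library size only: Gm23301 between TEsR and TruSeq MEFs (-0.17) and Snord72 between MES TEsR and MEF TruSeq (-0.79); that setting omits the scaling factors. Counts of called genes stayed within 1.5 times in 160 cases. The exceptions concern other ribosomal protein gene snoRNAs between MES TEsR and MEF TruSeq: 11 were higher by library size only, against 18, and 17 were lower without MES 2, against 28 (range 17 to 30 over libraries left out); the cause was not tested. With a replicate block on the column numbers, 117 genes were higher and 77 lower in MES than in MEF TEsR, against 119 and 86. Same-numbered libraries did not deviate together over the tested genes (r = -0.0393 for mm and -0.0226 for pm). Each r rests on a single pair of differences and cannot exclude a pairing, and the main fit used none. TruSeq columns carry no number. Members' shares moved by more than their SD in 12 cases, 11 of them with the 4 genes out of the denominator. Depth limits AC161199.1 and Snora21 in MEF TEsR most, at 17 to 159 counts a library.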
